A study of Mus musculus with 8 samples.

Results

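The genes described here are 10 that form the postsynaptic side of glutamatergic transmission onto the afferents of the cochlea: the AMPA receptor subunits *Gria1*, *Gria2*, *Gria3* and *Gria4*, the NMDA receptor subunits *Grin1* and *Grin2b*, the kainate receptor subunits *Grik2* and *Grik5*, the delta receptor subunit *Grid1*, and *Dlg4*, which encodes the postsynaptic scaffold PSD-95. They were chosen by symbol, and each had 1 entry among the 47628 named entries of the count tables. All 10 were among the 19366 genes tested. Cochlear RNA was sequenced at 21 days of age from 4 WT mice, labelled WT_4, WT_5, WT_6 and WT_8, and from 4 Opa1+/- mice, labelled Het_2, Het_7, Het_484 and Het_491. Values of single mice are always given in that order. Opa1+/- mice carry 1 knock-in copy of the 4-base deletion delTTAG in *Opa1*, the gene of an inner mitochondrial membrane fusion GTPase, and WT mice were littermates. Both groups share a mixed C57BL/6J and 129 Sv/Pas background. Homozygotes die in utero, so that only the heterozygous state could be compared, and the labels give no sex for single mice. Each library held the RNA of the whole cochlea, in which fewer cells of a type and less RNA per cell cannot be told apart.

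In the hearing organ, the inner hair cell releases glutamate from ribbon synapses onto the peripheral terminals of spiral ganglion neurons, the bipolar neurons whose central axons form the auditory nerve. AMPA receptors, which are tetramers of GluA subunits, carry the fast current there, and the mature synapse is known for GluA2, GluA3 and GluA4 with little GluA1. NMDA receptors need an obligatory GluN1 subunit, encoded by *Grin1*, together with a GluN2 or GluN3 partner. High-affinity kainate subunits such as GluK5, encoded by *Grik5*, form channels only together with a partner of the GluK1 to GluK3 kind, while delta receptors act mainly as adhesion and signalling proteins. PSD-95 anchors AMPA receptors at excitatory synapses through their auxiliary proteins.

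One codon in the pore loop sets the calcium permeability of AMPA and kainate receptors. In *Gria2* this glutamine codon is edited in the RNA by the deaminase ADAR2, encoded by *Adarb1*, so that an arginine is read and the channel passes little calcium, and the same codon of *Grik2* can be edited as well. The count tables hold no reads and thus no editing level. The coding sequence around the codon was read from the GRCm38 genome with the GENCODE vM21 annotation in the sense of each gene. It is shown because this codon is edited in *Gria2* and can be edited in *Grik2*. Capitals mark the pore codon.
Gria2: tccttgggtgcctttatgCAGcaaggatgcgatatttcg
Gria3: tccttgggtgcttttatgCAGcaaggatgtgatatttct
Gria4: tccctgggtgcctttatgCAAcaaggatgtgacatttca
Gria1: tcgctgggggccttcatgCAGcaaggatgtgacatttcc
Grik5: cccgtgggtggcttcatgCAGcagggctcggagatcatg
Grik2: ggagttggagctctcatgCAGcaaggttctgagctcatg
All 6 genomic codons read glutamine. Of the 39 bases shown, 36 were the same as in *Gria2* in *Gria3*, 34 in *Gria4*, 32 in *Gria1*, 27 in *Grik5* and 22 in *Grik2*. The codon lay in an exon in every gene, namely exon 11 of 16 in *Gria1* (chr11:57243094-57243096, plus strand), *Gria2* (chr3:80706911-80706913, minus strand) and *Gria4* (chr9:4464137-4464139, minus strand), exon 11 of 15 in *Gria3* (chrX:41610265-41610267, plus strand), exon 13 of 17 in *Grik2* (chr10:49244329-49244331, minus strand) and exon 15 of 20 in *Grik5* (chr7:25022497-25022499, minus strand).

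Counts of named genes came to between 15978051 and 20828030 per library. The deposited count of each gene was expressed as CPM, that is, relative to the total counts of its library after TMM scaling (a correction for differences in library composition). *Opa1*, the mutated gene, was measured first: the values were 118, 127, 112 and 123 CPM in WT mice and 63.4, 68.6, 60.5 and 69.4 CPM in Opa1+/- mice. Every Opa1+/- library lay below every WT library, and the mean fell from 119.8 ± 6.56 to 65.5 ± 4.28 CPM (SD, n = 4), a change of -45.3% with a 95% interval of -50.9 to -39.2% (adjusted p = 0.00526, edgeR quasi-likelihood test with Benjamini-Hochberg adjustment). The adjusted p was 0.0588 without mouse WT_8, 0.0580 without mouse Het_2 and 0.324 without mice Het_484 and Het_491 together. *Opa1* was the only one of 5 genes past an adjusted p of 0.05 whose counts were lower in Opa1+/- mice, which is 0.00516% of all genes tested. Markers of spiral ganglion neurons were well measured in all libraries (18 of 18 tested), as were those of hair cells (12 of 12).

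None of the 10 genes passed the adjusted threshold in the comparison of Opa1+/- with WT mice, where 0.0258% of all genes tested did. The lowest adjusted p among them was 0.726, for *Gria3*. At an unadjusted p under 0.05, edgeR called 1 of the 10, *Gria3*, against 6.70% of all genes (3.32% lower and 3.38% higher in Opa1+/- mice), and DESeq2 called 2, *Gria2* and *Gria3*, against 5.61%, again with none past its adjusted threshold. Limma voom gave *Gria2* and *Gria3* unadjusted p-values of 0.0335 and 0.0201 and adjusted p-values of 0.449 and 0.423. Its share of all genes before adjustment is not given here, so these 2 values cannot be set against a background. The log2 fold change was below 0 in 7 of 10 genes, against 50.9% of all genes, and its median was -0.075 against -0.0031 over all genes. It was below 0 in 5 of 10 without mouse WT_6 (median -0.063), and in 5 of 10 without mice Het_484 and Het_491 together, where the median was 0.020. Without mouse Het_7 it was below 0 in 8 of 10, with a median of -0.16.

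**Figure D1:**
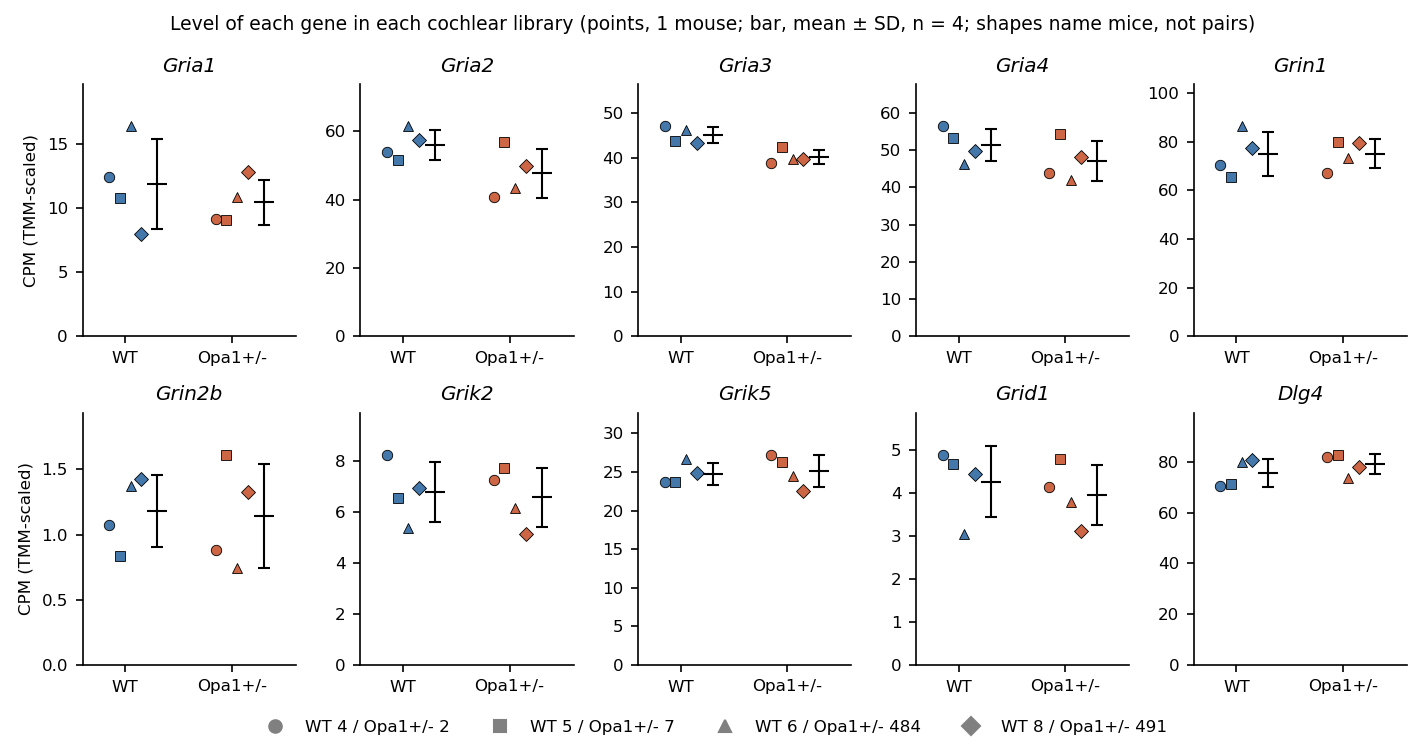
Level of each of the 10 genes in each cochlear library, in TMM-scaled CPM on axes that start at 0, with 1 point per mouse and a bar for the mean ± SD of 4 WT or 4 Opa1+/- mice; point shapes name the mice and do not pair them. Only for Gria3 do the groups stand apart, with WT mice from 43.3 to 47.0 CPM and Opa1+/- mice from 38.8 to 42.3 CPM.

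Among the AMPA receptor subunits, *Gria3* (chrX:41400854-41678601), which encodes GluA3, was the only one whose groups did not overlap. It had 47.0, 43.7, 46.2 and 43.3 CPM in WT mice and 38.8, 42.3, 39.6 and 39.7 CPM in Opa1+/- mice. The highest Opa1+/- mouse, Het_7, came close to the lowest WT mouse, WT_8. The mean was 45.0 ± 1.83 CPM in WT against 40.1 ± 1.53 CPM in Opa1+/- mice (SD, n = 4), a difference of -10.9% with an interval of -18.1 to -3.09% (edgeR unadjusted p = 0.0123, adjusted p = 0.726). Groups did not overlap in 4.29% of all genes, with lower Opa1+/- values in 2.31% and higher ones in 1.98%. When the summed counts of the 18 spiral ganglion neuron markers served as the library size, the log2 fold change of *Gria3* went from -0.17 to -0.13 (unadjusted p = 0.130). On that scale the groups overlapped, with 5.47 to 6.18 *Gria3* counts per 1000 marker counts in WT and 4.83 to 5.60 in Opa1+/- mice.

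*Gria2* (chr3:80681450-80802835), whose product GluA2 keeps calcium out of the channel once edited, had 53.8, 51.4, 61.4 and 57.3 CPM in WT and 40.8, 56.9, 43.3 and 49.9 CPM in Opa1+/- mice. Mice Het_2, Het_484 and Het_491 lay below every WT mouse, whereas mouse Het_7 lay among the WT values. Means of 56.0 ± 4.33 and 47.7 ± 7.22 CPM gave a log2 fold change of -0.23 with an interval of -0.47 to 0.0079 (edgeR unadjusted p = 0.0566, adjusted p = 0.748; DESeq2 unadjusted p = 0.0486, adjusted p = 0.882). In edgeR fits that left out 1 mouse, the log2 fold change ranged from -0.16 without mouse Het_2 (unadjusted p = 0.153, adjusted p = 0.83) to -0.33 without mouse Het_7 (unadjusted p = 0.00671, adjusted p = 0.695).

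*Gria4* (chr9:4417896-4796234) encodes GluA4, a subunit of fast-gating receptors in auditory pathways. Its values were 56.3, 53.2, 46.2 and 49.7 CPM in WT and 44.0, 54.3, 41.9 and 48.2 CPM in Opa1+/- mice, and the groups overlapped. The log2 fold change was -0.12 (SE 0.0929, adjusted p = 0.818, edgeR), from means of 51.3 ± 4.38 and 47.1 ± 5.48 CPM. *Gria1* (chr11:57011387-57330244), the GluA1 gene, varied most of the AMPA subunits relative to its mean between mice of a genotype, with 12.5, 10.8, 16.4 and 7.97 CPM in WT and 9.15, 9.06, 10.9 and 12.8 CPM in Opa1+/- mice. WT mice held both its highest and its lowest value. Its log2 fold change of -0.18 (SE 0.209) had an interval of -0.65 to 0.29 (adjusted p = 0.890, edgeR), so that these libraries could not resolve differences of that size in either direction, and the value was 0.0095 without mouse WT_6.

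Mouse WT_6, highest for *Gria1*, also had the highest summed CPM of the 8 oligodendrocyte and astrocyte markers, 742.6 against 352.8 to 652.8 in the other libraries. Over the 8 mice, log2 *Gria1* and that sum had a Pearson r of 0.76 (permutation p = 0.0264, adjusted p = 0.404 over 100 relations) and a Spearman rho of 0.79 (permutation p = 0.0279, adjusted p = 0.698). Without mouse WT_6 and mouse Het_491, which held the highest sums, r was 0.35 over the other 6 mice.

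Summed over the 4 AMPA subunit genes, WT mice had 169.6, 159.0, 170.1 and 158.3 CPM and Opa1+/- mice had 132.7, 162.6, 135.7 and 150.5 CPM. Mouse Het_7 again lay within the WT range and the other 3 below it. The mean sum was 164.3 ± 6.47 CPM in WT against 145.4 ± 13.9 CPM in Opa1+/- mice (SD, n = 4), a ratio of 0.885. All 4 subunits had a log2 fold change below 0, with a median of -0.17, and 3 of 4 did without mouse WT_6. Per 1000 counts of spiral ganglion neuron markers, the AMPA sum was 21.3 ± 1.05 in WT and 19.2 ± 1.55 in Opa1+/- mice, and the groups overlapped on both scales.

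**Figure D2:**
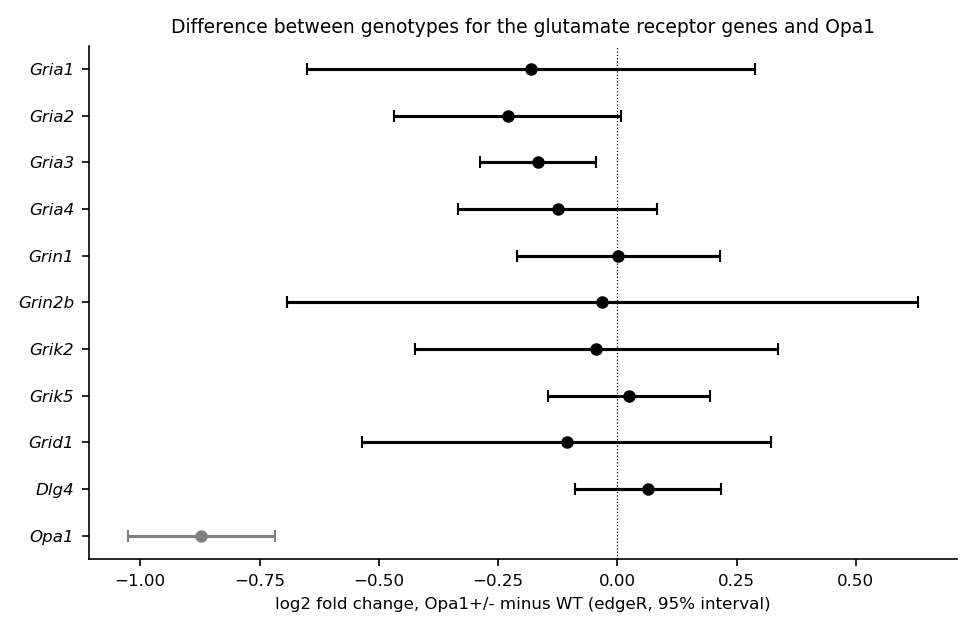
Difference between genotypes for the 10 genes and Opa1: each point is the edgeR log2 fold change, Opa1+/- minus WT, and each bar its 95% interval, from 4 mice per group. The interval of Gria3, -0.29 to -0.045, is the only one of the 10 that leaves out 0; Grin2b has the widest, and Opa1 lies apart at -0.87.

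Of the NMDA receptor subunits, *Grin1* (chr2:25291181-25319187), the obligatory subunit, had 70.3, 65.5, 86.3 and 77.6 CPM in WT and 67.1, 80.0, 73.5 and 79.4 CPM in Opa1+/- mice. The WT range enclosed all Opa1+/- values. Means of 74.9 ± 9.05 and 75.0 ± 6.01 CPM gave a log2 fold change of 0.0022 with an interval of -0.21 to 0.21 (adjusted p = 0.998, edgeR), and its sign depended on the scaling. An antisense gene, *Grin1os*, shares 13.5% of the exon bases of *Grin1* on the opposite strand, and without a stated strand setting the reads of such a pair cannot be told apart. *Grin2b* (chr6:135713233-136173511), the GluN2B partner typical of immature synapses, was near the floor of the measurement, with 12 to 32 counts per library. It had 1.08, 0.836, 1.37 and 1.43 CPM in WT and 0.885, 1.61, 0.744 and 1.33 CPM in Opa1+/- mice, which overlapped. Its log2 fold change of -0.032 (SE 0.295, adjusted p = 0.986, edgeR) had an interval of -0.69 to 0.63, so that an increase or a decrease by 1.5 times was not detectable at this depth.

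For the kainate receptor subunits, *Grik5* (chr7:25009849-25072346) had 23.7, 23.8, 26.6 and 24.8 CPM in WT and 27.2, 26.3, 24.5 and 22.5 CPM in Opa1+/- mice. The Opa1+/- values ran both above and below the WT range. Their log2 fold change was 0.024 (SE 0.0757, adjusted p = 0.962, edgeR). *Grik2* (chr10:49094833-49788766), which encodes the GluK2 partner that lets GluK5 form channels, had 8.22, 6.54, 5.38 and 6.94 CPM in WT and 7.26, 7.70, 6.14 and 5.13 CPM in Opa1+/- mice. These groups overlapped almost fully, with a log2 fold change of -0.044 (SE 0.169, adjusted p = 0.969, edgeR).

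The delta receptor subunit *Grid1* (chr14:34820108-35583379), whose product GluD1 binds cerebellins and is known for a role in high-frequency hearing in mice, had 4.87, 4.67, 3.05 and 4.43 CPM in WT and 4.13, 4.78, 3.78 and 3.10 CPM in Opa1+/- mice. The lowest WT and the lowest Opa1+/- mouse were alike. A log2 fold change of -0.11 was found (SE 0.191, adjusted p = 0.934, edgeR). *Dlg4* (chr11:70016942-70047522), the scaffold gene, had 70.5, 71.5, 80.1 and 80.7 CPM in WT and 81.8, 82.7, 73.8 and 78.2 CPM in Opa1+/- mice. Mice Het_2 and Het_7 lay above every WT mouse and the other two inside the WT range. Its log2 fold change of 0.064 (SE 0.0683, adjusted p = 0.875, edgeR) was the highest of the 10 genes.

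The mice differed among themselves across genes. Mouse Het_7 had the highest value of its genotype in 8 of the 10 genes, all but *Gria1* and *Grik5*. Among WT mice no such pattern was seen: WT_4 and WT_6 were each highest for 4 genes, WT_8 for 2 and WT_5 for none. The mean log2 CPM of the 10 genes and the log2 summed CPM of spiral ganglion neuron markers had a Pearson r of 0.54 over the 8 mice (permutation p = 0.170) and a Spearman rho of 0.36 (permutation p = 0.389). Without mouse WT_5 and mouse Het_484, r was 0.16. Scaled by total counts alone, the same relation had an r of 0.64 (permutation p = 0.101) and a rho of 0.64 (permutation p = 0.0962), with r at 0.50 without mice WT_5 and WT_8.

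Levels of different genes were compared as CPM per kilobase of annotated exon, with all exons of a gene joined. In WT mice *Gria4* was highest at 8.14 ± 0.695 CPM per kb (SD, n = 4), followed by *Grin1* at 7.72 ± 0.933, and the values of these genes overlapped between mice. *Dlg4* followed at 5.71 ± 0.411, *Grik5* at 4.79 ± 0.264 and *Gria3* at 4.57 ± 0.186 CPM per kb, of which *Grik5* and *Gria3* overlapped. *Gria2* stood at 3.60 ± 0.278 and *Gria1* at 1.97 ± 0.581 CPM per kb, each apart from its neighbours. *Grid1* at 0.714 ± 0.139 and *Grik2* at 0.511 ± 0.0884 CPM per kb overlapped, and *Grin2b* was lowest of all at 0.0474 ± 0.0111 CPM per kb. In Opa1+/- mice the first pair changed places within their overlap, *Grin1* at 7.73 ± 0.619 and *Gria4* at 7.47 ± 0.869 CPM per kb, and the other 8 genes kept their order.

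This order depended on the length used, because the joined exons of *Grin1* and *Dlg4* (9700 and 13251 bases) are over 2 times as long as their longest transcripts (4276 and 6326 bases). Those of *Gria3* are 9859 against 5206 bases. Per kilobase of the longest transcript, *Grin1* led in WT mice at 17.5 ± 2.12 and *Dlg4* followed at 12.0 CPM per kb, ahead of *Gria4* at 9.44, *Gria3* at 8.65, *Grik5* at 6.09 and *Gria2* at 5.40 CPM per kb. *Gria4* and *Gria3* overlapped between mice by this length, as did *Grik5* and *Gria2*. In WT mice *Gria1*, *Grid1*, *Grik2* and *Grin2b* came last in that order by both lengths. In Opa1+/- mice, per kilobase of the longest transcript, *Grik2* at 0.695 and *Grid1* at 0.690 CPM per kb changed places within their overlap.

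**Figure D3:**
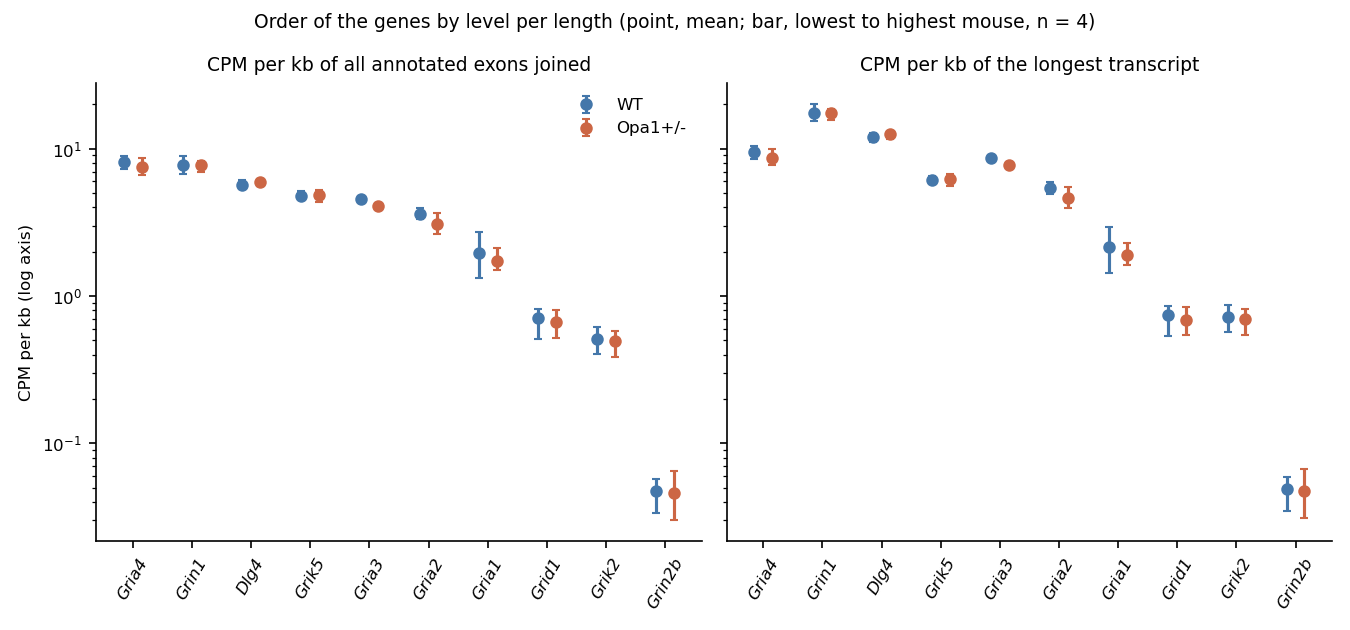
Mean CPM per kb of the 10 genes (log axis) in 4 WT and 4 Opa1+/- mice, with bars from the lowest to the highest mouse, per kilobase of all annotated exons joined (left) and of the longest transcript (right). Grin1 is at 7.72 in WT mice on the left and at 17.5 on the right, and Grin2b stays under 0.1 in both.

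Within the AMPA family, *Gria4* made up 44.6 ± 3.60% of the summed CPM per kb in WT and 45.6 ± 1.77% in Opa1+/- mice (SD, n = 4). *Gria3* made up 25.0 ± 0.336% and 25.0 ± 1.46%, *Gria2* 19.7 ± 1.76% and 18.7 ± 1.19%, and *Gria1* 10.7 ± 2.86% and 10.7 ± 1.87%. The genotypes overlapped for each subunit. Mouse WT_6 had the smallest *Gria4* share, 39.2%, and the largest *Gria1* share, 14.5%. With the longest transcript as the length, *Gria4* and *Gria3* came closer together in WT mice, at 36.8% and 33.8%, with *Gria2* at 21.1% and *Gria1* at 8.32%, which left the order of the means as it was. In mouse WT_6 that length put *Gria3* at 33.9% above *Gria4* at 32.3%. By counts with no length, the WT shares were 34.1% for *Gria2*, 31.3% for *Gria4*, 27.4% for *Gria3* and 7.20% for *Gria1*, and *Gria2* and *Gria4* overlapped between mice. The lengths of *Gria2*, 15548 and 10371 bases, are the longest of the 4, so its place in the order depends on dividing by length. *Grin2b* reached 0.609 ± 0.0904% of the level of *Grin1* in WT and 0.587 ± 0.170% in Opa1+/- mice, and 0.277% and 0.267% with the longest transcript as the length. *Grik2* reached 10.8 ± 2.30% of the level of *Grik5* in WT mice, against 10.1 ± 1.08% in Opa1+/- mice.

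**Figure D4:**
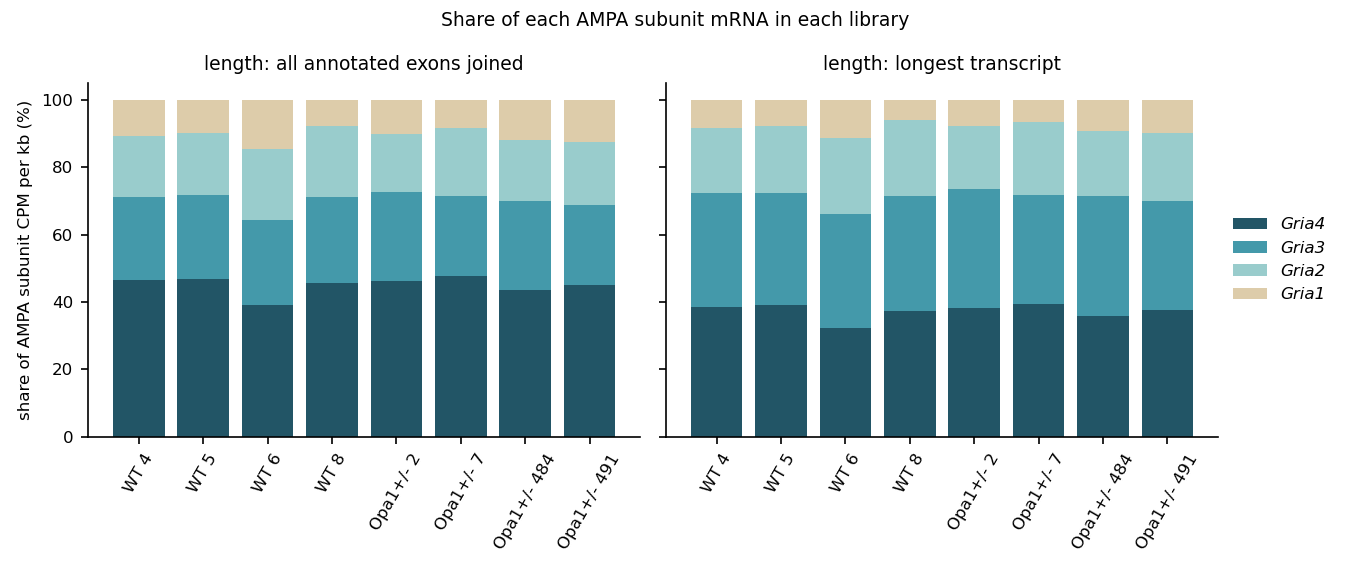
Share of each AMPA receptor subunit mRNA in the summed AMPA CPM per kb of each library (bars start at 0), with length taken as all exons joined (left) or the longest transcript (right). Gria4 is the largest share in 8 of 8 libraries on the left, and mouse WT_6 has the smallest Gria4 share at 39.2%.

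The partners of these subunits came from lists of 89 further genes of glutamatergic synapses, of which 82 were tested. None passed the adjusted threshold in edgeR or DESeq2, and the lowest adjusted p in edgeR was 0.726. At an unadjusted p under 0.05 both tools called 3 of the 82, all with lower means in Opa1+/- mice, among them *Neto2* and *Shank2*, against 6.70% of all genes in edgeR (3.32% lower) and 5.61% in DESeq2. Limma voom called 6 before adjustment and none after it, and its share of all genes before adjustment is not given here. Fold changes on the log2 scale were below 0 in 50 and above 0 in 32, where 50.9% of all genes were below 0, with a median of -0.051 against -0.0031 over all genes.

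Of the 9 other ionotropic subunits, 7 were tested and none was called, with 4 values below 0 and 3 above. *Grik1* and *Grik4* were the most abundant per length, at 2.29 and 1.92 CPM per kb in WT mice. *Grik1*, a GluK5 partner like *Grik2*, had 24.0, 16.4, 2.45 and 18.6 CPM in WT and 14.5, 14.8, 15.7 and 22.6 CPM in Opa1+/- mice (log2 fold change 0.13, SE 0.485, adjusted p = 0.967, edgeR). Mouse WT_6 lay far below all other libraries, and the mean was higher in Opa1+/- mice only with that mouse included. The other WT mice, 16.4 to 24.0 CPM, overlapped the Opa1+/- mice, 14.5 to 22.6 CPM. *Grik4* differed by a log2 fold change of 0.027 (SE 0.108). The GluN2 partners of *Grin1* were scarce as a group: *Grin2a* was too low to be tested, *Grin2d* stood at 0.275 CPM per kb in WT mice and *Grin2c* at 0.505 CPM per kb, against 7.72 for *Grin1* itself. The GluN3 partner gene *Grin3a* had a higher mean, 0.752 CPM per kb in WT mice (log2 fold change -0.11, SE 0.242). Its WT values, 0.394 to 1.01 CPM per kb, overlapped those of *Grin2c*, 0.326 to 0.747, and in mouse WT_6 *Grin2c* was the higher. *Grin2d* had the lowest p of the list, with a log2 fold change of -0.24 (SE 0.199, adjusted p = 0.835, edgeR).

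Auxiliary and assembly proteins, which traffic AMPA and kainate receptors and slow or speed their gating, were tested for 15 of 16 genes. *Neto2*, an auxiliary subunit of kainate receptors, had 18.9, 25.0, 15.3 and 17.7 CPM in WT and 14.8, 16.3, 14.3 and 12.8 CPM in Opa1+/- mice. Mice Het_2, Het_484 and Het_491 lay below all WT mice, and mouse Het_7 lay above the lowest of them. Its log2 fold change of -0.40 (SE 0.147) had an unadjusted p of 0.0218 and an adjusted p of 0.726 in edgeR. The AMPA auxiliary genes *Cacng7*, the most abundant of the list at 18.1 CPM per kb in WT mice, and *Cacng4* had log2 fold changes of 0.077 (SE 0.0823) and -0.083 (SE 0.192).

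Among 21 other scaffold and trafficking genes, 10 had a log2 fold change below 0 and 11 above. *Shank2*, a master scaffold that links receptor complexes to actin, had 15.3, 16.6, 16.4 and 19.3 CPM in WT and 17.5, 9.81, 13.5 and 10.6 CPM in Opa1+/- mice. Only mouse Het_2 reached the WT range. Between genotypes the log2 fold change was -0.40 (SE 0.173, unadjusted p = 0.0461, adjusted p = 0.737, edgeR). *Nsf*, an ATPase that also binds GluA2, and *Dlg1*, a relative of *Dlg4*, had log2 fold changes of -0.046 (SE 0.128) and -0.11 (SE 0.0777).

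Genes of glutamate uptake and metabolism gave 7 of 8 log2 fold changes below 0, with a median of -0.10, against 50.9% of all genes below 0. An unadjusted p under 0.05 was found for 1 of the 8 in edgeR and in DESeq2, against 6.70% and 5.61% of all genes. *Glul*, the glutamine synthetase of supporting and glial cells, and the glutamine carrier gene *Slc38a2* had log2 fold changes of 0.0086 (SE 0.154) and -0.15 (SE 0.105).

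On the presynaptic side, 9 of 10 inner hair cell ribbon synapse genes had a log2 fold change below 0, against 50.9% of all genes, with a median of -0.073, and none had an unadjusted p under 0.05. *Cacna1d*, the calcium channel of hair cell release sites, had 28.9 ± 3.28 CPM in WT against 24.9 ± 4.02 CPM in Opa1+/- mice (log2 fold change -0.21, SE 0.123, adjusted p = 0.768, edgeR). *Ctbp2*, whose locus encodes the ribbon protein RIBEYE, and *Cabp2*, a calcium sensor of that channel, differed by -0.049 (SE 0.0945) and -0.079 (SE 0.230) on the log2 scale. Synaptic organizers gave 8 values below 0 and 6 above, among them the neuroligin genes *Nlgn1* (-0.14, SE 0.114) and *Nlgn2* (0.078, SE 0.104) and the pentraxin receptor gene *Nptxr* (-0.027, SE 0.146).

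Metabotropic receptor genes, which modulate rather than carry the current, were tested for 4 of 8, and *Grm7* and *Grm4* were the most abundant per length, at 2.60 and 1.53 CPM per kb in WT mice. Their log2 fold changes were 0.12 (SE 0.140) and 0.29 (SE 0.197, adjusted p = 0.793, edgeR). That of *Grm7* leans on mouse WT_6, at 10.9 CPM. The other WT mice had 16.4 to 17.2 CPM and Opa1+/- mice 14.9 to 17.9 CPM. The editing enzyme gene *Adarb1*, which acts on the *Gria2* codon shown above, had 78.9 ± 6.98 CPM in WT against 77.1 ± 4.68 CPM in Opa1+/- mice, a log2 fold change of -0.034 (SE 0.0760, adjusted p = 0.949, edgeR). *Adar*, which edits mostly other sites, differed by 0.037 (SE 0.0733).

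**Figure D5:**
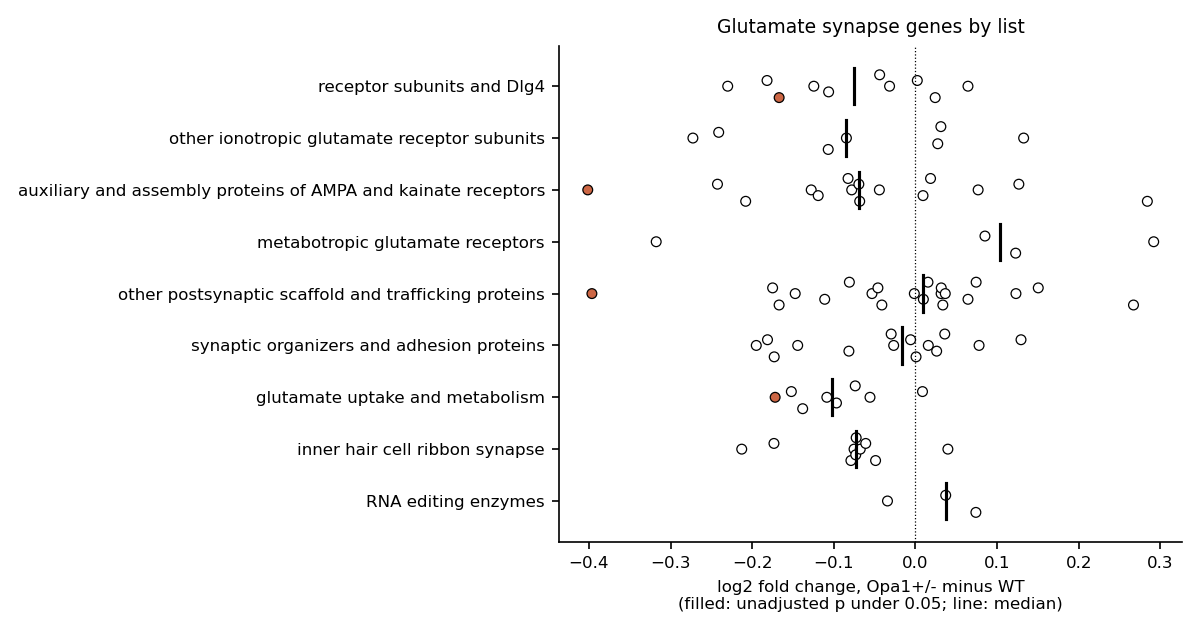
Log2 fold change, Opa1+/- minus WT, of each tested glutamate synapse gene by list, with a line at each list's median; filled points have an unadjusted edgeR p under 0.05. The 4 filled points, among them Gria3, Neto2 and Shank2, are all below 0 and none is past the adjusted threshold, and list medians lie between -0.10 and 0.10.

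Cell type markers were summed to show which cells contributed to each library. The 18 spiral ganglion neuron markers, among them the neurofilament genes *Nefh* and *Nefl* and the release gene *Snap25*, came to 7743 ± 459.9 CPM in WT against 7575 ± 477.8 CPM in Opa1+/- mice (SD, n = 4). The groups overlapped, with 7067 to 8098 CPM in WT and 7077 to 8215 CPM in Opa1+/- mice (exact permutation p = 0.686, two-sided, where the smallest possible p is 0.0286). Hair cell markers came to 193.6 ± 33.1 and 196.6 ± 16.7 CPM (exact permutation p = 0.886). Schwann cell and satellite glia markers, whose cells wrap spiral ganglion neurons, came to 4369 ± 619.4 and 4974 ± 635.7 CPM (exact permutation p = 0.257), and 12 of 12 had a log2 fold change above 0, with a median of 0.20, where 50.9% of all genes were below 0. Of these 12, *Egr2*, a transcription factor of myelinating Schwann cells, had the lowest p, with a log2 fold change of 0.34 (SE 0.0873, unadjusted p = 0.00334, adjusted p = 0.726, edgeR). Other marker lists also went in 1 direction: 7 of 7 erythroid markers lay above 0 (median 0.57) and 6 of 6 skeletal muscle markers below 0 (median -0.77).

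Markers of central nervous tissue were summed as well. Of 5 markers of inhibitory and cortical central neurons only *Gad1* was high enough to be tested, and their sum was 2.29 to 4.72 CPM in all 8 libraries. Oligodendrocyte and astrocyte markers, including *Gfap*, *Mobp* and *Aqp4*, came to 511.6 ± 164.8 CPM in WT against 536.8 ± 103.6 CPM in Opa1+/- mice (exact permutation p = 0.886). The sums of stria vascularis (541.9 and 548.5 CPM), bone (456.9 and 445.5 CPM), erythroid (12541 and 18442 CPM), neutrophil and marrow (650.6 and 686.1 CPM) and skeletal muscle markers (703.2 and 456.0 CPM) had exact permutation p-values of 0.914, 0.857, 0.171, 0.857 and 0.714. The muscle ratio, Opa1+/- to WT, was 0.648 with all mice and 1.34 without mouse WT_6. Mouse WT_4 had the highest erythroid sum of the WT mice, 21273 CPM, and alone among them lay within the Opa1+/- range, 15100 to 24823 CPM. Without mouse WT_4 the erythroid sum was 1.92 times as high in Opa1+/- as in WT mice. The groups then stood apart, which fixes the exact permutation p at 0.0286, the smallest that 3 against 4 mice allow. No other marker sum came as low when 1 mouse was left out, and no conclusion is drawn from this p. Adjustment over the 10 lists could not give a value under 0.05 for any single sum with 4 against 4 mice, so only the unadjusted p-values are read here. Among 100 relations of a gene with a marker sum over the 8 mice, 7 had a permutation p of Pearson's r under 0.05 and none after adjustment. Beside that of *Gria1* given above, the other 6 were negative, each with an adjusted p of 0.404 for r. With the stria vascularis sum, *Grid1* had an r of -0.79 (permutation p = 0.0161) and a rho of -0.95 (permutation p = 0.00114, adjusted p = 0.114), *Grik2* an r of -0.82 (permutation p = 0.0110) and a rho of -0.86 (permutation p = 0.0107, adjusted p = 0.536), and *Gria4* an r of -0.77 (permutation p = 0.0222) and a rho of -0.81 (permutation p = 0.0218, adjusted p = 0.698). Without mice WT_4 and WT_6, these r were -0.67, -0.65 and -0.77. With the hair cell sum, *Grid1* and *Grik2* had an r of -0.78 and -0.76 (permutation p = 0.0190 and 0.0282) and a rho of -0.76 and -0.64 (permutation p = 0.0368 and 0.0962), and r was -0.61 and -0.45 without the same mice. *Grid1* and the oligodendrocyte and astrocyte sum had an r of -0.77 (permutation p = 0.0263) and a rho of -0.62 (permutation p = 0.115), with r at -0.23 without mice WT_6 and Het_491. The part of these cell types in the values of the receptor genes was not tested further.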

How the data were processed

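RNA seq of whole cochleae from 4 WT and 4 Opa1+/- mice at 21 days was used. The authors prepared CORALL libraries with unique molecular identifiers, sequenced 2 × 80 nucleotides, trimmed adapters and mapped reads to GRCm38/mm10 with STAR (FastQC for quality), and deposited raw counts per gene symbol for each library. Raw data were processed by the authors with the CORALL Data Analysis Pipeline. Beyond that name, the counting program, its annotation and its strand setting are not given in the sources used here. Totals of named genes ranged from 15978051 to 20828030 counts, and 15 entries with a number in place of a name, 0.112 to 0.124% of counts, were left out.

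Counts were tested with edgeR 4.0.16 (quasi-likelihood, TMM) in R 4.3.3 over the 19366 genes with a mean normalized count over 10, with Benjamini-Hochberg adjustment over all of them and a threshold of 0.05. The standard error was the size of the log2 fold change over the root of the F statistic, and 95% intervals use the t distribution with the degrees of freedom of the fit. DESeq2 1.42.0, limma 3.58.1 and other settings, 18 fits in all, were alternatives. Marker sums were compared with exact two-sided permutation tests over the 70 arrangements of the mice. Lengths, coordinates and coding sequence came from GENCODE vM21, which named 45236 of the 47502 distinct symbols and all 10 genes.

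The 10 genes, the lists and the markers were chosen with earlier results of these data known. Genes named were the 10, *Opa1*, and in each list those past the adjusted threshold, the lowest p and the 2 with the highest CPM per kb, with 3 genes most alike in pattern; *Grin2a*, *Grin2c*, *Grin3a*, *Grin1os* and the markers with an outlying library were added after their values were seen. One gene that this rule names is not reported here. Replicates are single mice, and counts between libraries of a genotype differed by more than sampling noise. Precision is limited by 4 mice per group. The code was tested on simulated data.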

Additional observations from a re-analysis of the deposited data

Results flagged for a closer look

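In 162 sets of 4 mice (a gene or sum in 1 genotype), the gap between an extreme mouse and the next was compared with Dixon's 95% critical value for 4 values, and 8 sets exceeded it, where chance flags about 1 in 20. In mouse WT_5 the kainate subunit sum, *Grik2* plus *Grik5*, was 30.3 CPM against 31.7 to 32.0 in the other WT mice, a small gap in a narrow range. In mouse Het_491 the kainate subunit gene *Grik1* stood at 22.6 CPM against 14.5 to 15.7. In mouse WT_6 the metabotropic receptor gene *Grm7* stood at 10.9 CPM against 16.4 to 17.2.

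Of the marker genes, the muscle genes *Acta1* and *Tnnt3* were at 276.0 and 310.3 CPM in mouse WT_6, against 17.5 to 38.1 and 20.1 to 50.4 CPM in the other WT mice. The neutrophil genes *S100a8* and *S100a9* were at 249.0 and 471.1 CPM in mouse WT_4, against 55.9 to 81.7 and 107 to 165 CPM, and the summed neutrophil and marrow markers of that mouse were at 1295 CPM, against 401.0 to 488.9 CPM. The part of these libraries in the results is given by the fits that leave them out.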

How the results depend on the processing

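None of the 10 genes and none of the 82 tested partners passed the adjusted threshold in any of the 18 other fits, with a lowest adjusted p of 0.423 for the 10 genes, and none did at an adjusted p under 0.1 in the edgeR fit reported. These fits called between 0 and 23 of all genes, against 5 in the fit reported. *Gria2*, *Gria3*, *Gria4* and *Dlg4* kept their sign in every fit, with ranges over the fits that leave out 1 mouse of -0.33 to -0.16, -0.19 to -0.15, -0.20 to -0.073 and 0.032 to 0.10. Before adjustment, *Gria3* was called in all fits but the one scaled to neuron markers and the one without mice Het_484 and Het_491 together, *Gria4* only without mouse Het_7, and *Gria2* in 6 fits (total counts, no filter beyond 1 count, DESeq2, limma voom, without mouse WT_5 and without mouse Het_7). These fits reuse the same mice, so repeated calls are not independent. Apart from edgeR and DESeq2 above, their shares of all genes called before adjustment are not given here. *Grin1* was -0.00021 with DESeq2 size factors, -0.025 with total counts and -0.026 without both mice Het_484 and Het_491, a fit in which *Grin2b*, *Grik2* and *Grid1* were 0.097, 0.14 and 0.065. Leaving out 1 mouse gave -0.33 to 0.0095 for *Gria1*, -0.057 to 0.077 for *Grin1*, -0.26 to 0.12 for *Grin2b*, -0.14 to 0.061 for *Grik2*, -0.016 to 0.073 for *Grik5* and -0.23 to -0.0084 for *Grid1*. *Opa1* ranged from -0.90 to -0.84 without 1 mouse, passing the adjusted threshold in all such fits but those without mouse WT_8 (adjusted p = 0.0588) and mouse Het_2 (adjusted p = 0.0580). Without both Het_484 and Het_491 it was -0.86 (adjusted p = 0.324), with 2 mice left in a group. Ratios of marker sums, Opa1+/- to WT, without 1 mouse ranged from 0.950 to 1.09 for hair cells, 0.951 to 1.24 for oligodendrocytes and astrocytes, 0.905 to 1.12 for central neurons, 0.911 to 1.14 for stria, 0.919 to 1.04 for bone, 0.866 to 1.57 for neutrophils and 0.444 to 1.34 for muscle, all crossing 1, from 0.951 to 0.9998 for spiral ganglion neurons, from 1.07 to 1.19 for Schwann cells and satellite glia, and from 1.30 to 1.92 for erythroid genes, the highest without mouse WT_4. With total counts the hair cell ratio was 0.999 and the stria ratio 0.997. The median of all genes was -0.0031 in the fit reported, -0.028 with total counts and 0.029 with neuron marker scaling, the values farthest from it among these fits. The cause of these changes was not tested. No paired analysis was possible because the genotypes share no animal numbers.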

Other observations

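The genes whose log2 CPM followed the mean log2 CPM of the 10 genes most closely over the 8 mice, after removal of each genotype mean, were *Gm3695* (Pearson r = 0.96), *Tmem202* (0.96) and *Lsm11* (0.95). They are the highest of 19366 values computed over 8 libraries, *Tmem202* had a mean of 0.539 CPM in WT mice, and nothing was read from the likeness.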
